A study of Arabidopsis thaliana with 4 samples.

Results

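Plant defensins are small, cysteine-rich secreted peptides, many of which inhibit the growth of fungi. In Arabidopsis they are grouped by sequence into classes named PDF1, PDF2 and PDF3. The class 1 genes *PDF1.2a* and *PDF1.2b* are widely used as markers of the ERF branch of jasmonic acid (JA) signaling, which needs JA and ethylene together, is driven by ERF-type transcription factors, and is held back by MYC2, the factor that drives the other branch. Several class 2 genes are known for steady expression in unchallenged plants, and the peptides of *PDF2.5* and *PDF2.6* have been described as cadmium chelators. The members here were the probe sets of the Affymetrix ATH1 array that are listed to a single gene with a PDF1, PDF2 or PDF3 symbol. By this rule 10 of 22746 probe sets qualified, 5 through the current symbol of the gene and 5 through a synonym (the table calls them *LCR* genes), with 4 genes of class 1, 6 of class 2 and 0 of class 3.

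The arrays compared the *aln-1* mutant, a T-DNA insertion line in *ALLANTOINASE* (*ALN*), with the wild type (WT). Both are in the Col-0 background, and the RNA was that of seedling shoots (the aerial parts), harvested 2 weeks after germination under long days on a sterile medium with sucrose. Each genotype had 2 arrays. The study used this mutant because a block in allantoin breakdown lets the purine metabolite accumulate. *aln-1* is a single insertion allele, and no source used here says that the 2 arrays of a genotype came from separate cultures, so that p-values measure only how far these arrays scatter, which may be technical.

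Each value is a normalized score that the authors deposited, one for each probe set and array. The scores lie on a logarithmic scale whose base and scaling no source used here states. Differences are therefore given in score units, as *aln-1* minus WT, and not as fold changes. For orientation, the SD of the difference over all 21754 features tested was 0.237, and 90% of features lay between -0.33 and 0.37. A feature was a gene, or a probe set with no single gene listed, and a call means an adjusted p under 0.05 from limma over all features. The *ALN* transcript itself had scores of -0.047 and 0.005 in *aln-1*, against 0.367 and 0.442 in WT, which differ by -0.43 (standard error (SE) 0.05, adjusted p = 0.0116). No source used here places its probes relative to the insertion. It was not called without WT replicate 1 (-0.46, adjusted p = 0.0845) or WT replicate 2 (-0.39, adjusted p = 0.0726). Scores of arrays of one genotype correlated across features at 0.981 in *aln-1* and 0.987 in WT, against 0.901 to 0.947 between genotypes.

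Of the 10 defensin genes, 9 had scores. *PDF1.1*, best known from seeds, had no values on any array. In *aln-1*, 2 defensin genes of class 1 were lower than in WT and 2 of class 2 were higher, and the other 5 did not pass the test. Over all features, 8.17% were called lower and 7.42% higher. At an unadjusted p under 0.05 from limma, 6 of the 9 passed, against 35.3% of all features. Of the genes called, *PDF1.2b* and *PDF1.2a* had differences of -1.35 and -0.68, whose sizes and order are uncertain because the *aln-1* scores were low. *PDF2.5* and *PDF2.1* had rises of 0.62 and 0.44, the first also of uncertain size because its WT scores were low. In aerial tissue sampled in bulk, fewer cells that express a gene and less transcript in each cell cannot be told apart.

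**Figure D1:**
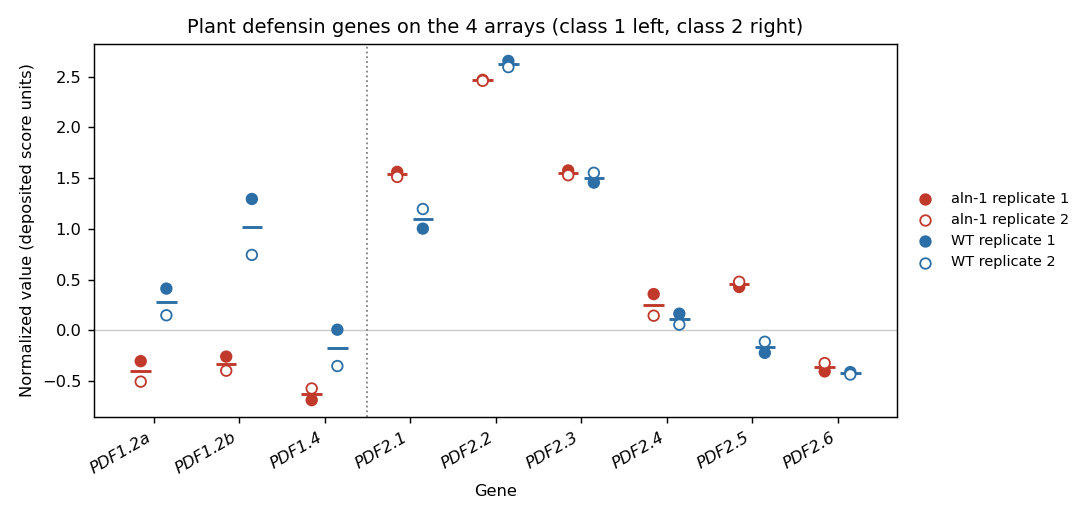
Normalized value (deposited score units) of each measured plant defensin gene on each array, with *aln-1* in red to the left of WT in blue, replicate 1 filled, replicate 2 open, and a short line at the mean of the 2 arrays. All 3 class 1 genes sit lower on both *aln-1* arrays than on both WT arrays, and *PDF2.1* and *PDF2.5* sit higher. Heights are not to be compared between genes, since each probe set has its own response.

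*PDF1.2b* (AT2G26020) encodes an antifungal peptide and is a standard readout of the ERF branch. Its scores were -0.258 and -0.397 in *aln-1*, against 1.295 and 0.744 in WT. Both *aln-1* arrays were far below both WT arrays, by more than the gap between the WT arrays. The difference was -1.35 (SE 0.18, 95% interval -1.81 to -0.88, adjusted p = 0.015), which as measured ranked 21 from the lowest among the 21754 features. It was called with any 1 array left out, with differences between -1.62 and -1.07. The probe set is of the kind whose name marks possible cross-hybridisation (suffix x), so that transcripts of related defensin genes may contribute to this signal. *PDF1.3*, which lies directly next to *PDF1.2b* on chromosome 2 with 0 genes between them in the gene table of assembly TAIR10.1, had no probe set listed to it alone and was not analysed here.

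*PDF1.2a* (AT5G44420), whose product is nearly the same peptide, had scores of -0.303 and -0.505 in *aln-1*, against 0.412 and 0.149 in WT. The genotypes did not overlap. The difference was -0.68 (SE 0.11, 95% interval -0.97 to -0.40, adjusted p = 0.0221), which as measured ranked 149 from the lowest. The call was lost without *aln-1* replicate 2 (-0.58, adjusted p = 0.0572), WT replicate 1 (-0.55, adjusted p = 0.119) or WT replicate 2 (-0.82, adjusted p = 0.0538), while the direction stayed the same. Its neighbour on chromosome 5, *PDF1.2c*, with 0 genes between them, had no probe set listed to it alone.

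*PDF1.4* (AT1G19610), a class 1 gene that is less often used as a JA marker, had scores of -0.687 and -0.572 in *aln-1*, against 0.007 and -0.351 in WT. The arrays of the genotypes did not overlap here either, but the WT arrays lay 0.36 apart. The difference of -0.46 (SE 0.12, 95% interval -0.78 to -0.14) did not pass the test after adjustment (unadjusted p = 0.014, adjusted p = 0.0678). *PDF1.5*, the remaining class 1 gene of the gene table, had no probe set listed to it alone.

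The class 1 scores in *aln-1* lay towards the lower end of the arrays. For *PDF1.4*, 1.25% and 3.19% of features had lower scores on the *aln-1* arrays, against 39.8% and 17.2% on the WT arrays. For *PDF1.2a* the shares were 21.7% and 6.31% in *aln-1*, against 63% and 48.7% in WT. *PDF1.2b* lay above 24.9% and 13.5% of features in *aln-1*, against 92.7% and 78.4% in WT. The sizes of these differences, and their order, are therefore uncertain.

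**Figure D2:**
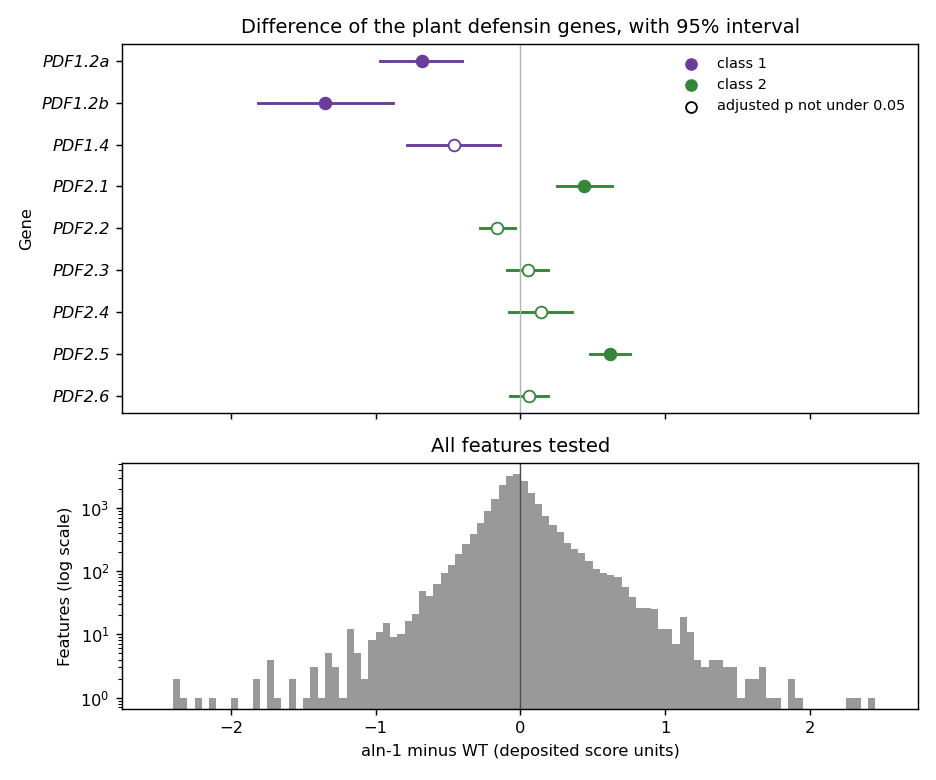
Upper panel, difference between *aln-1* and WT (score units) of each defensin gene with its 95% interval from limma, class 1 in purple and class 2 in green, filled where the adjusted p was under 0.05. Lower panel, the same difference for all 21754 features, with their number on a log scale. *PDF1.2b* at -1.35 lies in the sparse left tail, while *PDF2.3* at 0.05 and *PDF2.6* at 0.06 lie in the dense centre.

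Among the class 2 genes, *PDF2.5* (AT5G63660) had the smallest adjusted p. It encodes a defensin described as a cadmium chelator that promotes cadmium export from the cell. Its scores were 0.428 and 0.479 in *aln-1*, against -0.221 and -0.112 in WT. The WT arrays lay 0.11 apart without regard to sign, a gap that 20.2% of features exceeded, and the genotypes did not overlap. The rise was 0.62 (SE 0.06, 95% interval 0.48 to 0.76, adjusted p = 0.00703), as measured at rank 405 from the highest. The WT scores were low, above 23.2% and 33.8% of features, so that the size of this rise is uncertain. Without WT replicate 1 the difference was 0.57 and the call was lost, along with most calls over all features.

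*PDF2.1* (AT2G02120), another class 2 defensin, was also higher, with scores of 1.562 and 1.512 in *aln-1*, against 1.003 and 1.196 in WT. The gap between the WT arrays was wider than that between the *aln-1* arrays, and the genotypes did not overlap. The rise of 0.44 (SE 0.08, 95% interval 0.25 to 0.63, adjusted p = 0.0246) was not called without *aln-1* replicate 2 (0.46, adjusted p = 0.0574) or WT replicate 1 (0.34, adjusted p = 0.117).

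The other 4 class 2 genes did not pass the test. *PDF2.2* (AT2G02100) had scores of 2.469 and 2.459 in *aln-1*, against 2.655 and 2.594 in WT, so that both *aln-1* arrays were lower, with a difference of -0.16 (95% interval -0.28 to -0.04, unadjusted p = 0.0169, adjusted p = 0.0748). At least 99.6% of features had lower scores than *PDF2.2* on each array, close to the upper end of the scale, so that the size of this difference is uncertain. *PDF2.3* (AT2G02130) had 1.576 and 1.529 in *aln-1*, against 1.456 and 1.553 in WT. The arrays overlapped, and its difference was 0.05 (95% interval -0.09 to 0.19, adjusted p = 0.562). *PDF2.4* (AT1G61070) also overlapped, with 0.358 and 0.145 in *aln-1*, against 0.165 and 0.057 in WT, a difference of 0.14 (95% interval -0.08 to 0.36, adjusted p = 0.301). *PDF2.6* (AT2G02140), the other gene linked to cadmium, had -0.404 and -0.322 in *aln-1*, against -0.411 and -0.435 in WT. These arrays just failed to overlap, and the difference was 0.06 (95% interval -0.07 to 0.19, adjusted p = 0.438). The interval of *PDF2.3* leaves out a change as large as that of *PDF2.5* as measured, whose lower bound was 0.48. For *PDF2.6*, between 7.44% and 19.5% of features had lower scores on the 4 arrays. The size of its difference is therefore uncertain, and its interval cannot leave out a larger change.

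Neighbouring defensin genes did not all give the same result. *PDF2.2*, *PDF2.1*, *PDF2.3* and *PDF2.6* lie in this order in one stretch of chromosome 2. *PDF2.1* and *PDF2.3* are direct neighbours with 0 genes between them, and 2 genes separate each outer pair in the gene table of assembly TAIR10.1. Of the 4, *PDF2.1* was called and *PDF2.2*, *PDF2.3* and *PDF2.6* were not, with differences of -0.16, 0.05 and 0.06. Whether their differences differ from that of *PDF2.1* was not tested. *PDF2.5*, with the larger rise as measured, lies on chromosome 5.

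Set side by side, the differences of the measured genes of class 1 and class 2 had no shared range. The 3 measured class 1 genes ran from -1.35 to -0.46 with a median of -0.68, and 2 of 3 were called lower and 0 higher. The 6 class 2 genes ran from -0.16 to 0.62 with a median of 0.10, and 2 of 6 were called higher and 0 lower. The median over all features was -0.03. Class 1 minus class 2 gave -0.78 between these medians, and -0.67 without probe sets of suffix s or x, which leaves out *PDF1.2b*. The probe set of *PDF1.2b* may also detect related defensin transcripts, so that it may not count separately from *PDF1.2a*. Genes are not replicates and the members were chosen with earlier results of these arrays known, so that this contrast is a description without a test. That the arrays of the genotypes did not overlap is common here. It held in the lower direction for 41.4% of all features, against 3 of 3 class 1 genes and 1 of 6 class 2 genes, and in the higher direction for 25.4% of all features, against 0 of 3 and 3 of 6.

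The WT arrays lay far apart for the class 1 genes. WT replicate 1 was above WT replicate 2 in 3 of 3 class 1 genes, by 0.26 for *PDF1.2a*, 0.55 for *PDF1.2b* and 0.36 for *PDF1.4*. The median gap between the WT arrays, without regard to sign, was 0.05 over all features, and 2.44%, 0.294% and 0.993% of features had a wider one than these 3 genes. In class 2 the gaps lay between -0.19 and 0.11, with WT replicate 1 the higher in 3 of 6 genes, against 56.9% of all features. In *aln-1*, replicate 1 minus replicate 2 was 0.20 for *PDF1.2a*, 0.14 for *PDF1.2b* and -0.12 for *PDF1.4*, beside a median gap of 0.06 over all features without regard to sign. The level of the class 1 genes in WT thus rests on 2 arrays that were unlike each other, and leaving out WT replicate 1 reduced the difference to -1.07 for *PDF1.2b*, -0.55 for *PDF1.2a* and -0.28 for *PDF1.4*.

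**Figure D3:**
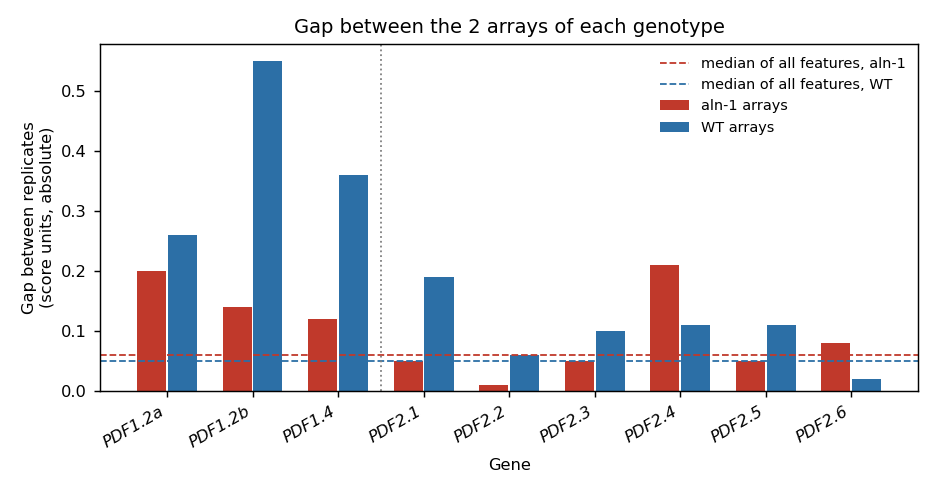
Gap between the 2 arrays of each genotype (score units, absolute value) for each defensin gene, *aln-1* in red and WT in blue, with dashed lines at the median gap of all features (0.06 in *aln-1* and 0.05 in WT). The blue bars of the 3 class 1 genes, 0.26 to 0.55, are the tallest of the WT bars.

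**Figure D4:**
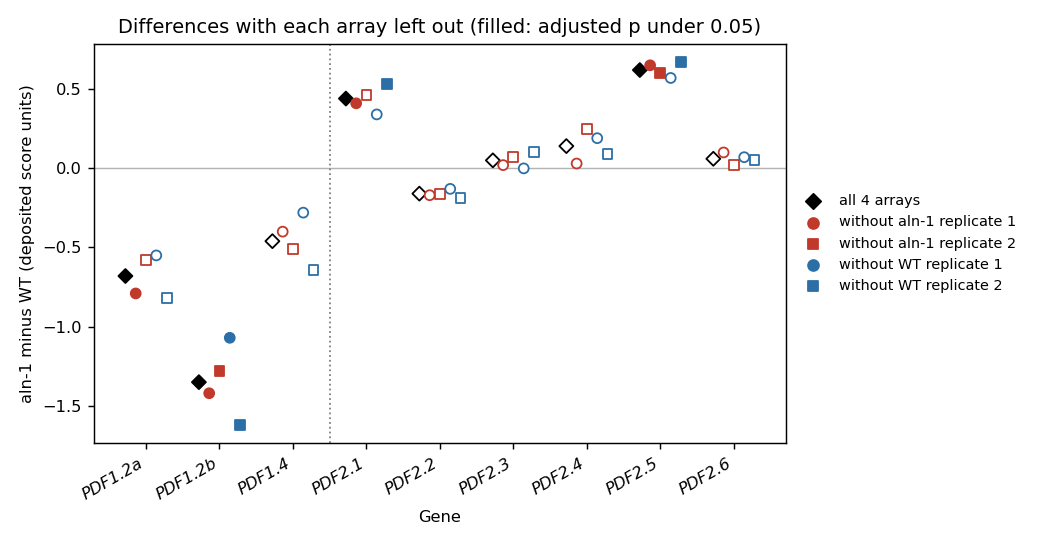
Difference between *aln-1* and WT (score units) of each defensin gene from all 4 arrays (black) and with each array left out in turn, filled where the adjusted p was under 0.05. *PDF1.2b* stays called throughout, between -1.62 and -1.07, while *PDF1.2a* keeps its direction and loses the call in 3 of 4 cases.

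The regulators of defensin expression were hardly covered by probe sets listed to 1 gene. For all gene lists here, measured means that a gene had values on a probe set listed to it alone. The annotation listed 13513 probe sets with 1 gene, against 22746 on the array without controls. A gene that was not measured in this sense may therefore still be on the array, and its change is unknown here. Of 16 genes of the ERF branch, 2 were measured and 0 of these 2 were called. *EIN3*, a transcription factor that transmits the ethylene signal to ERF genes, had scores of 1.354 and 1.411 in *aln-1*, against 1.219 and 1.203 in WT, a difference of 0.17 (SE 0.05, unadjusted p = 0.0126, adjusted p = 0.0639). *ERF96*, a small ERF factor, had a difference of 0.05 (adjusted p = 0.659), with overlapping arrays. *ORA59* and *ERF1*, the ERF factors that switch on *PDF1.2a*, were not analysed here. Of 20 genes for the JA receptor, the JAZ repressors and the MYC factors, 2 were measured and 0 called. *MYC3* and *MYC4*, relatives of MYC2, had differences of 0.11 (adjusted p = 0.152) and -0.05 (adjusted p = 0.593). Of 9 regulators on the salicylic acid side, only *GRX480* was measured. It encodes a glutaredoxin that represses *PDF1.2a* when overproduced, and had a difference of -0.15 (adjusted p = 0.414), with scores of 0.717 and 1.062 in *aln-1*, against 1.096 and 0.990 in WT.

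Of 10 other antimicrobial and pathogenesis-related genes, 2 were measured, both thionins, and they were called in opposite directions. *THI2.1*, a thionin gene induced by JA, had scores of 0.713 and 0.491 in *aln-1*, against -0.262 and -0.263 in WT. The rise was 0.86 (SE 0.08, adjusted p = 0.00746), and was not called without WT replicate 1 (0.86, adjusted p = 0.0783) or WT replicate 2 (0.86, adjusted p = 0.054). *THI2.2*, which encodes a related thionin, had -0.185 and -0.200 in *aln-1*, against 0.709 and 0.830 in WT. Its difference of -0.96 (SE 0.06, adjusted p = 0.00352) as measured ranked 65 from the lowest, and lay between -1.02 and -0.90 with any 1 array left out. The WT scores of *THI2.1* lay above 19.6% and 23.9% of features, and the *aln-1* scores of *THI2.2* above 30% and 28.7%. The sizes of both differences are therefore uncertain.

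**Figure D5:**
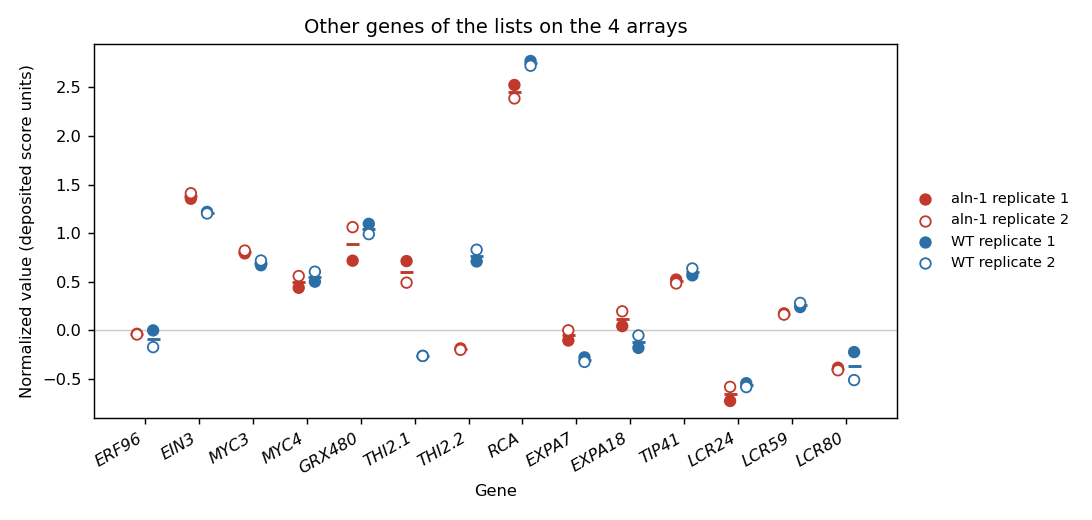
Normalized value (deposited score units) on each array of the other measured genes of the lists, drawn as for the defensin genes, with *aln-1* to the left of WT. *THI2.1* is higher and *THI2.2* lower on both *aln-1* arrays, while the arrays of *MYC4* and *GRX480* overlap.

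Tissue markers were checked in the same way, since some defensin genes are expressed unevenly among organs. Of 10 leaf markers, *RCA*, the gene of Rubisco activase, was the only one measured, with scores of 2.524 and 2.386 in *aln-1*, against 2.771 and 2.722 in WT. Its difference was -0.29 (adjusted p = 0.039), a call that was lost on leaving out WT replicate 1 (-0.27), WT replicate 2 (-0.32) or *aln-1* replicate 2 (-0.22). At least 99.5% of features had lower scores than *RCA* on each array, so that the size of its difference is as uncertain as that of *PDF2.2*. Of 8 root markers, the 2 measured were root hair expansins, and both were higher on the *aln-1* arrays although the labels name aerial parts. *EXPA7* had -0.104 and 0.001 in *aln-1*, against -0.277 and -0.324 in WT, a rise of 0.25 (adjusted p = 0.0431) whose call was lost on leaving out WT replicate 1 (0.27), WT replicate 2 (0.23) or *aln-1* replicate 2 (0.20). *EXPA18* had a difference of 0.24 (adjusted p = 0.0918), and was called without *aln-1* replicate 1 (0.31, adjusted p = 0.0499). In WT, *EXPA7* lay above 18.3% and 19.2% of features and *EXPA18* above 26.4% and 37.5%. These scores were low, so that the sizes of both rises are uncertain. None of the 6 seed markers and none of the 4 flower markers had a probe set listed to 1 gene. The expansin values moved in the direction of *PDF2.1* and *PDF2.5*, and the fall of *RCA* in that of the class 1 genes, and their part in the defensin differences was not tested.

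For each called defensin gene, the 3 genes whose scores followed it most closely were found by the Euclidean distance between scores centred on the gene mean, over the 4 arrays. For *PDF1.2b* they were AT5G24210, AT5G52760 and AT1G13470, at distances of 0.099, 0.163 and 0.193. The first of these had scores of 0.002 and -0.157 in *aln-1*, against 1.425 and 0.960 in WT, with the same high WT replicate 1 as *PDF1.2b*. For *PDF1.2a* they were AT3G29240, AT1G43910 and AT4G11900, at 0.046, 0.068 and 0.093. For *PDF2.1* they were AT4G17280, AT5G04080 and AT2G22510, at 0.044, 0.051 and 0.056, and for *PDF2.5* AT3G50300, AT3G52500 and AT5G45410, at 0.022, 0.029 and 0.039. With only 4 arrays, closeness says little beyond a like difference between genotypes and a like gap between replicates. No other defensin gene was among the closest 3 of any of these 4 genes. The distance counts the size of a difference, so that defensin genes with differences of unlike size could not be close.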

How the data were processed

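RNA of *aln-1* and WT seedlings had been hybridised to Affymetrix ATH1 arrays in an earlier study. The authors renormalized these data with a three-parameter lognormal model through the SuperNORM service and deposited 1 normalized score per probe set and array. No source used here gives the version of the service, its background step or its summary of probes. The deposited table also holds p-values from a comparison by the authors, which were not used. With 4 arrays, precision is limited by their number.

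After removal of 64 control probe sets and 842 without values, 21904 remained. Of the probe sets in the annotation, 13513 were listed with 1 gene, 503 with several, and 13436 were matched to the gene table of TAIR10.1. A gene was represented by its probe set with the highest mean. The comparison of *aln-1* with WT used limma 3.58.1 in R 4.3.3 (lmFit, then eBayes), genotype being the only term, with Benjamini-Hochberg adjustment over 21754 features. The study's two-way ANOVA could not be repeated, since no source used here names its second factor. The script was tested on simulated data. All PDF members are described, along with *ALN*, up to 4 genes of each list by smallest p, and the 3 closest genes of each called member. Members and lists were chosen with earlier results of these data known. Promoter and protein sequences were not used here.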

Additional observations from a re-analysis of the deposited data

How the results depend on the processing

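The depth of these data is set by 4 arrays, and low scores bound the class 1 differences and that of *PDF2.5*. Under 9 other settings (a block for the replicate number, quantile normalization, centring, no features of the lowest tercile by mean, a variance trend, every probe set, probe sets averaged by gene, no probe sets with suffix s or x, and the series' value table), each measured defensin gene that had a value kept its direction and its side of the threshold. Of these settings, only quantile normalization and centring could turn the direction of a defensin gene. The others leave its difference as it was by construction, and mostly bear on the p-values. The value table held the same scores to within 4.6e-08, so that it could change nothing. Without the lowest tercile, *PDF1.4* and *PDF2.6* dropped out and the median of class 1 minus class 2 was -1.16 instead of -0.78. Without probe sets of suffix s or x, *PDF1.2b* dropped out, which left 1 defensin gene called lower.

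The same-numbered arrays deviated together with a correlation of only 0.041 over all features, so that no general pairing was found. For *PDF1.2a* and *PDF1.2b*, replicate 1 was the higher in both genotypes, and for *PDF1.4* in WT only. A block for the replicate number changed the SE of *PDF1.2a* from 0.11 to 0.05 and that of *PDF1.2b* from 0.18 to 0.10. Whether these arrays were paired was not tested. With the replicate block, 1918 features were called higher and 1854 lower, against 1615 and 1778 without it, with 2 defensin genes called in each direction. Among the list genes the block removed the call of *EXPA7* (adjusted p = 0.0508) and added one for *EXPA18* (adjusted p = 0.0394), while leaving out the lowest tercile added *EIN3* (adjusted p = 0.0481).

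Leaving out 1 array gave 1 to 2 defensin genes called lower and 0 to 2 called higher, and over all features 61 to 2372 lower and 71 to 2114 higher, the fewest without WT replicate 1 (61 lower and 71 higher). *ALN* ran from -0.46 to -0.39. Signs turned only for uncalled genes, namely *PDF2.3* (-0.00071 without WT replicate 1, up to 0.10 without WT replicate 2), *ERF96* (-0.04 without WT replicate 2, up to 0.13), *MYC4* (-0.11 up to 0.0069, positive without *aln-1* replicate 1), *GRX480* (-0.33 up to 0.02, likewise) and *LCR80* (-0.17 without WT replicate 2, up to 0.11 without WT replicate 1, and 0.0031 after quantile normalization). The cause of these shifts was not tested.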

Other observations

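Defensin-like genes of the *LCR* family, which encode low-molecular-weight cysteine-rich peptides related to defensins, gave 3 further measured genes outside the PDF members, and limma called 0 of them at an adjusted p under 0.05, against 15.6% of all features, and 0 at an unadjusted p under 0.05, against 35.3% of all features. With 3 genes these counts are no result about the family. *LCR59* had scores of 0.175 and 0.162 in *aln-1*, against 0.240 and 0.283 in WT, lower on both *aln-1* arrays by -0.09 on average (95% interval -0.21 to 0.02, adjusted p = 0.202). *LCR80* had -0.384 and -0.410 in *aln-1*, against -0.223 and -0.511 in WT, with the WT arrays on either side of the *aln-1* arrays and WT replicate 1 the higher one, as for the class 1 defensin genes. *LCR24* had -0.726 and -0.581 in *aln-1*, against -0.543 and -0.583 in WT, all near the lower end of the arrays, and a difference of -0.09 (adjusted p = 0.359). The reference gene *TIP41*, the only one of 5 that was measured, had a difference of -0.10 (95% interval -0.22 to 0.03, adjusted p = 0.219).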
